A study of Homo sapiens with 4 samples.

Results

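Clone 5, one of 2 single-cell NOCT-KO clones of A549 cells, was compared with WT A549 cells across all genes of the transcriptome. The comparison used 3 of the 4 poly-A+ RNA-seq libraries of the study, namely the clone 5 library, WT 1 and WT 2. The fourth library, clone 4, was set beside them to say whether a change was shared by both clones. It was also part of the filter and of the fit, and without it 214 genes in place of 234 were called higher and 197 in place of 227 lower in clone 5. A549 is an established human cell line of epithelial character that was grown from a lung carcinoma. The WT group was A549 cells labelled WT. Both clones carry lentiviral Cas9 with a guide against NOCT and went through puromycin selection and limiting dilution. The labels and the study's methods do not say whether WT cells went through those steps, so NOCT loss, the steps of clone making and the history of a single founder cell cannot be told apart here. Clone 5 is 1 clone and 1 library, and nothing says that WT 1 and WT 2 came from separate cultures. All p-values below therefore measure clone 5 against a spread drawn from the WT pair, which may be technical. The fit pools that spread over genes, so it is not the WT spread of each gene alone. No spread between cultures of clone 5 was measured.

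NOCT (nocturnin) is a phosphatase that removes the 2′-phosphate from NADP+ and NADPH, which turns them into NAD+ and NADH. It belongs to the family of CCR4-type deadenylases by its fold, its transcript cycles with the circadian clock in many mammalian tissues, and part of the protein is found in mitochondria. NADPH feeds lipid synthesis and the defence against oxidants, and in mouse loss of the gene alters lipid metabolism. RNA-seq of a knockout clone asks which genes stand at another level in cells that were edited at this locus.

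Counts were scaled to library size by TMM and are given as CPM, counts relative to the scaled library total. A ratio is always clone 5 over WT on the log2 scale, as fitted by edgeR. The p-value is that of edgeR's quasi-likelihood test, adjusted by the Benjamini-Hochberg method over all genes tested. The standard error (SE) was back-calculated as the absolute ratio over the square root of that test's F statistic, so it restates the test. A gene was called higher or lower at an adjusted p under 0.05, and rose or fell is said only of such genes. A rise or fall given without a unit is on the log2 scale. The 4 libraries held between 36873556 and 41963070 counts. Of 23340 genes, 13143 passed the filter on low counts. As a check of the label, the epithelial keratin genes KRT8 and KRT18 held between 29974 and 48902 counts in every library and the cadherin gene CDH1 between 404 and 764, while PTPRC, PECAM1, CDH5 and HBB, markers of leukocytes, endothelium and erythroid cells, were at 0. The surfactant genes SFTPA1, SFTPB and SFTPC and the keratin gene KRT19 were also at 0 in all 4 libraries, and EPCAM held at most 6 counts. KRT19 and EPCAM are usually found in A549, so a 0 in this table need not mean that a transcript was absent. Of 19 markers of other cell types 13 or 14 were at 0 in each library, and their summed level was 16.6 and 15.9 CPM in the WT pair, 24.2 CPM in clone 5 and 15.8 CPM in clone 4. That sum in clone 5 came mainly from CD68, which codes for a lysosomal protein of macrophages and of many other cells and stood at 12.5 and 12.6 CPM in the WT pair and 21.1 CPM in clone 5 (log2 ratio 0.75, SE 0.16, adjusted p = 0.0149). Its part in the results below was not tested.

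The targeted gene is given first. NOCT, listed under its older symbol CCRN4L (chromosome 4 of hg19, 139936935 to 139967093), stood at 20.8 and 20.1 CPM in the WT pair and 15.6 CPM in clone 5. Its level in clone 5 lay below both WT libraries, but the difference did not pass the test (log2 ratio -0.39, SE 0.15, adjusted p = 0.208). In clone 4 the transcript stood at 29.3 CPM, so that clone 5 was lower than clone 4 by 0.91 on the log2 scale (SE 0.17, adjusted p = 0.00223). Cas9 alters the gene's sequence and need not lower its mRNA, and counts per gene do not show the edited site.

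A total of 461 of 13143 genes, or 3.51%, were called between clone 5 and WT. Of these, 234 (1.78%) rose and 227 (1.73%) fell in clone 5. At an unadjusted p under 0.05 there were 2056 genes, or 15.6%. Clone 5 lay above both WT libraries for 37.2% of genes and below both for 37.9%. For comparison, 711 genes (5.41%) rose and 791 (6.02%) fell in clone 4 in the same fit against the same WT libraries. The count of calls depended on the test and on the filter: DESeq2 called 148 and 150 genes, edgeR with a filter that asks for 1 library called 135 and 135, and edgeR with no filter on low counts called 8 and 21.

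The WT pair gave the yardstick for these changes. Mean levels reached 5 CPM for 10061 genes. Over these, log2 ratios of WT 1 to WT 2 had an SD of 0.17. The same SD was 0.26 for clone 5 over WT 2 and 0.29 for clone 5 over WT 1. Against the WT mean the SD was 0.26 for clone 5 and 0.39 for clone 4. A ratio to a mean of 2 libraries varies less than a ratio of single libraries. In clone 5, 18 of these genes (0.179%) were at least 2-fold higher than the WT mean and 43 (0.427%) at least 2-fold lower, while 3 genes (0.0298%) differed at least 2-fold between WT 1 and WT 2. The 3 were GAPDH, LHFPL4 and RN45S, a locus of ribosomal RNA, singled out after their values were seen. GAPDH stood at 14878 and 5494 CPM in the WT pair and 20011 CPM in clone 5, so this abundant glycolytic transcript differed within the WT pair. The 2-fold counts of rises and falls in clone 5 are not evenly matched. A gene with counts in clone 5 alone could not pass the filter, which asks for 2 libraries, while a gene at 0 in clone 5 could. The mean level also weighs 2 WT libraries against 1 of clone 5.

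**Figure D1:**
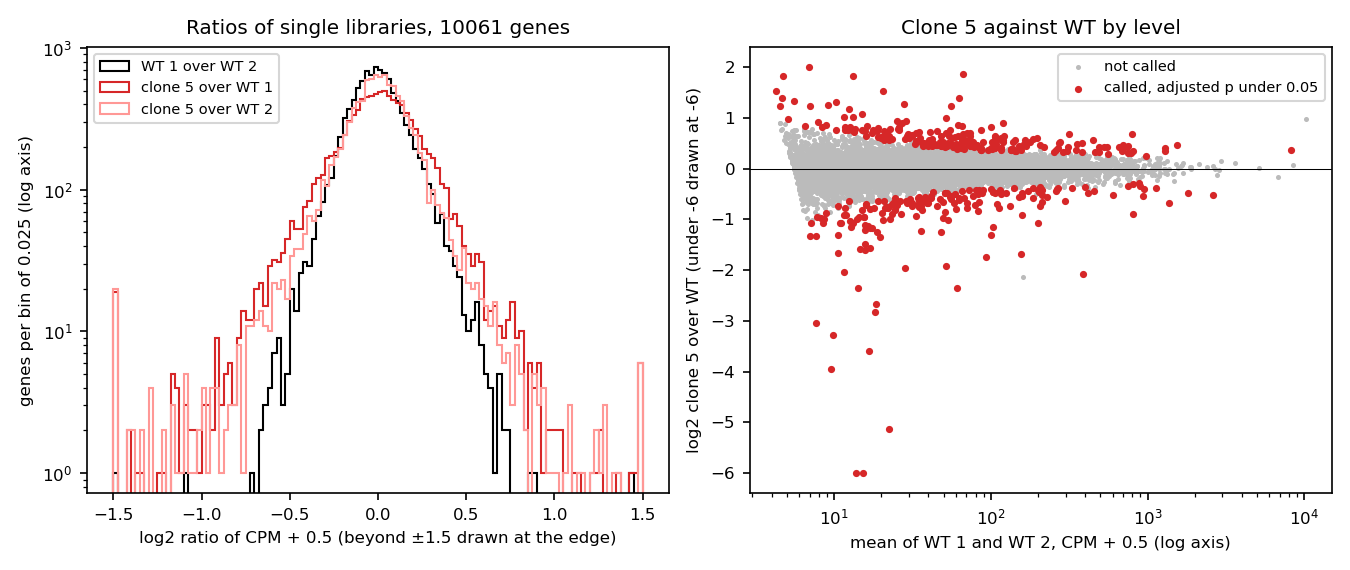
Left, distribution over 10061 genes of the log2 ratio between single libraries (CPM + 0.5, x axis) as genes per bin on a log y axis, for WT 1 over WT 2 (black) and clone 5 over each WT library (red shades). Right, log2 ratio of clone 5 over WT from edgeR against the WT mean in CPM on a log axis, for the same genes, with called genes in red. In the left panel both red curves are broader than the black one (SD 0.29 and 0.26 against 0.17). In the right panel the furthest called genes lie below the axis, where a gene with counts in clone 5 alone could not pass the filter.

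Genes of blood plasma proteins were among the furthest falls in clone 5. Fibrinogen, the protein that forms the fibrin clot, is built from 3 chains, and the genes of all 3 chains fell. FGB, the gene of the beta chain, stood at 11.2 CPM in WT 1 and 15.6 CPM in WT 2, and had 0 counts in clone 5. Against a floor of 3 counts in the clone 5 library this was at least 186-fold lower (adjusted p = 8.58e-08). Nearly all counts were even, so each fragment may have been counted as a pair, and a floor of 6 counts gives at least 93.0-fold. FGA, the gene of the alpha chain, stood at 19.3 and 24.8 CPM in the WT pair and 0.625 CPM in clone 5 (log2 ratio -5.13, SE 0.25, adjusted p = 2.78e-08). FGG, the gene of the gamma chain, was low in WT at 0.427 and 0.481 CPM, and its 0 counts in clone 5 were at least 6.29-fold lower, or at least 3.15-fold at a floor of 6 counts (adjusted p = 0.00743). The clone 4 library went the other way, at 188 CPM for FGA, 80.7 CPM for FGB and 12.9 CPM for FGG, each above both WT libraries, and all 3 genes differed between the clones.

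The 3 fibrinogen genes are neighbours on chromosome 4, and the 250 bases before each start are shown because the genes moved together. They are RefSeq sequences of GRCh38.p14, read 5′ to 3′ on the strand of the gene, from chr4:154590743-154590992 (minus strand) for FGA, chr4:154562730-154562979 (plus strand) for FGB and chr4:154612657-154612906 (minus strand) for FGG. Capitals mark the letters GTTAAT or their complement ATTAAC, the half-site of HNF1, a transcription factor of liver and gut.
FGA: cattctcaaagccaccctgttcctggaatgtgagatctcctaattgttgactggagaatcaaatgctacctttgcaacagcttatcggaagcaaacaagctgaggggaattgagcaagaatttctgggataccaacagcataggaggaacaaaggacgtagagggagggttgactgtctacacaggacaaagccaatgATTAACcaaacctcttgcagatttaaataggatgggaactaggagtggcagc
FGB: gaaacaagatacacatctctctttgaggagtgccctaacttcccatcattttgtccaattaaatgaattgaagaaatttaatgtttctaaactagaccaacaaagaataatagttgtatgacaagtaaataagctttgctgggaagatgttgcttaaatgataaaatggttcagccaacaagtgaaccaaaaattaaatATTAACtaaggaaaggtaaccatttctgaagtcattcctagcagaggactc
FGG: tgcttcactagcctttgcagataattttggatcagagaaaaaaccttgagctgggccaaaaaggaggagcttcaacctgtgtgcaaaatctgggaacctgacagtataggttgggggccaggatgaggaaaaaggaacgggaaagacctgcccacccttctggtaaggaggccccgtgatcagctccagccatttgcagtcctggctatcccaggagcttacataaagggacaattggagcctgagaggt
The half-site began 52 bases before the start of FGA and 51 bases before that of FGB, and no match was found in the window of FGG. These 6 letters were present in 6.23% of 35116 promoters of the same length, and the full palindromic site of HNF1 in 0.0057%, so a match is a description of the sequence only. The full site had no match in the windows of these 3 genes.

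Other genes of the liver-type secretory programme were counted from a list of 41, of which 12 passed the filter. Of these, 5 fell (FGA, FGB, FGG, CP and ITIH2) and 0 rose, where 1.73% of all genes fell. CP codes for ceruloplasmin, the copper-carrying ferroxidase of plasma, and stood at 17.4 and 18.7 CPM in the WT pair and 2.84 CPM in clone 5 (log2 ratio -2.66, SE 0.17, adjusted p = 5.86e-07). ITIH2, an inter-alpha-trypsin inhibitor chain that binds hyaluronan, stood at 2.89 and 3.46 CPM in the WT pair and 1.06 CPM in clone 5 (log2 ratio -1.58, SE 0.37, adjusted p = 0.0273). The median of the 12 was -0.97, also with FGB and FGG set to their bounds, against -0.10 for WT 1 over WT 2 and 0.94 for clone 4 over WT. It rested on which members were tested, with -2.67 over the 5 members at a mean of at least 5 CPM and -1.58 over the 9 that passed the filter with counts halved. With DESeq2 FGG and ITIH2 lost their calls (adjusted p = 0.0590 and 0.134), and FGG also when clone 4 was left out of the edgeR fit (adjusted p = 0.0549). APOH, a phospholipid-binding plasma protein, stood at 9.96 and 9.77 CPM in the WT pair and 7.74 CPM in clone 5 and did not pass the test (log2 ratio -0.35, SE 0.20, adjusted p = 0.444).

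Transcription factors and conjugating enzymes of liver and gut were counted separately. NR5A2, a nuclear receptor that drives bile acid and steroid genes in liver and gut, stood at 6.35 and 7.55 CPM in the WT pair and 0.577 CPM in clone 5 (log2 ratio -3.58, SE 0.30, adjusted p = 7.89e-06), against 20.1 CPM in clone 4. KLF5, a factor of gut and airway epithelium, fell from 35.8 and 36.1 CPM in the WT pair to 20.5 CPM (log2 ratio -0.81, SE 0.13, adjusted p = 0.00208). These were the 2 called members among 21 foregut transcription factors tested, whose median was -0.01. Among 12 genes of bile acid and glucuronide conjugation and transport, 3 fell and 1 rose. UGT1A1, which conjugates bilirubin, stood at 13.4 and 14 CPM in the WT pair and 2.69 CPM in clone 5 (log2 ratio -2.34, SE 0.23, adjusted p = 3.55e-05). It shares most of its exons with the other genes of the UGT1A locus, so reads from the shared exons cannot be told apart from theirs. BAAT, which joins bile acids to taurine or glycine, stood at 51.5 and 51 CPM in the WT pair and 13.6 CPM in clone 5 (log2 ratio -1.92, SE 0.14, adjusted p = 2.63e-06). Both also stood below WT in clone 4, at 3.61 and 4.66 CPM. The uptake transporter SLCO1B3 fell (10.9 and 9.38 CPM in the WT pair and 3.22 CPM in clone 5; log2 ratio -1.65, SE 0.21, adjusted p = 0.000478) and the export pump ABCC3 rose (149 and 160.2 CPM in the WT pair and 209 CPM in clone 5; log2 ratio 0.44, SE 0.09, adjusted p = 0.0174).

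Of the 15 furthest falls, 6 others are described next. NRCAM, a neuronal cell adhesion molecule, stood at 14.8 and 14.6 CPM in the WT pair and at 0.0962 CPM in clone 5, which is 4 counts (log2 ratio -7.21, SE 0.31, adjusted p = 1.65e-08). CPLX2, complexin 2, which binds the SNARE complex of vesicle fusion, was the most abundant of the 15 furthest falls, at 369.9 and 402 CPM in the WT pair and 92 CPM in clone 5 (log2 ratio -2.07, SE 0.09, adjusted p = 2.23e-08). MAP2, a microtubule-associated protein of dendrites, stood at 28.9 and 26.8 CPM in the WT pair and 7.21 CPM in clone 5 (log2 ratio -1.95, SE 0.17, adjusted p = 7.89e-06). These 3 genes lay far below a tight WT pair, and in clone 4 they stood at 109.7, 609 and 24.6 CPM. NTRK3, the receptor of neurotrophin 3, stood at 9.82 and 8.80 CPM in the WT pair and 0.962 CPM in clone 5 (log2 ratio -3.27, SE 0.29, adjusted p = 1.29e-05). NTS, the precursor of the peptide neurotensin, stood at 67.8 and 53.2 CPM in the WT pair and 11.8 CPM in clone 5 (log2 ratio -2.36, SE 0.15, adjusted p = 5.36e-07). DIO2, the deiodinase that makes active thyroid hormone, stood at 15.1 and 17.5 CPM in the WT pair and 1.35 CPM in clone 5 (log2 ratio -3.59, SE 0.19, adjusted p = 5.18e-08). In clone 4 NTS and DIO2 were above both WT libraries, at 238 and 231 CPM, while NTRK3 was at 4.49 CPM.

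The remaining 4 of the 15 were FSTL1, DACT2, SAMD11 and LINC00410. FSTL1, a secreted follistatin-like glycoprotein, stood at 9.15 and 8.85 CPM in the WT pair and 0.577 CPM in clone 5 (log2 ratio -3.96, SE 0.34, adjusted p = 7.89e-06), and it was also near 0 in clone 4, at 0.222 CPM. DACT2, an inhibitor of Wnt signalling that binds Dishevelled, stood at 6.88 and 7.51 CPM in the WT pair and 0.866 CPM in clone 5 (log2 ratio -3.05, SE 0.32, adjusted p = 6.12e-05). The long non-coding RNA LINC00410 and the gene SAMD11 fell by 2.82 and 2.04 on the log2 scale (SE 0.22 and 0.23, adjusted p = 3.76e-06 and 0.000136). Among the 15, the log2 ratio of clone 5 over WT thus ran from -1.92 for BAAT to the bound of FGB.

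**Figure D2:**
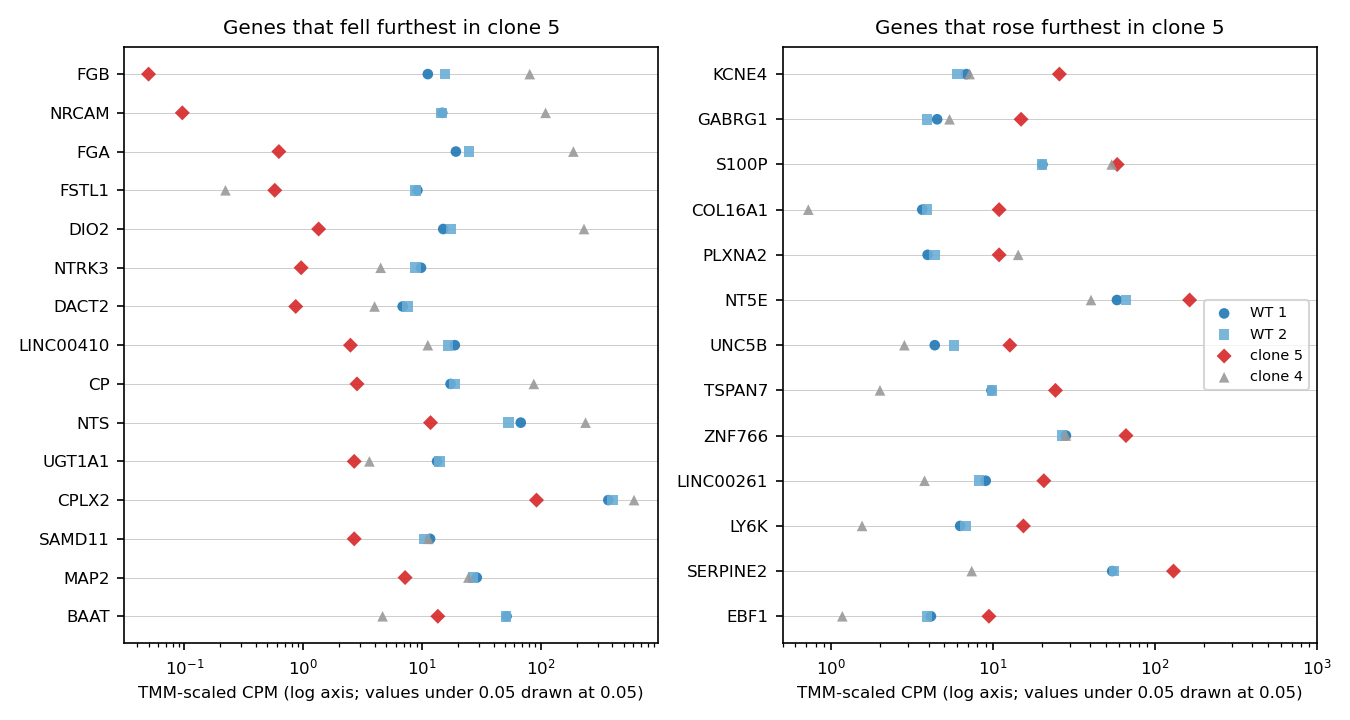
TMM-scaled CPM on a log x axis of the 15 genes that fell furthest (left) and of 13 of the 15 that rose furthest (right) in clone 5, with 1 point per library: WT 1 (circle), WT 2 (square), clone 5 (diamond) and clone 4 (triangle). The WT points nearly coincide, and clone 4 lies on either side of them, for example at 188 CPM for FGA and 7.38 CPM for SERPINE2.

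Among rises the filter set a limit, since it asks for 2 libraries and a gene with counts in clone 5 alone could not enter. The furthest rise among genes that passed it was KCNE4, a regulatory subunit of voltage-gated potassium channels, at 6.83 and 6.01 CPM in the WT pair and 25.7 CPM in clone 5 (log2 ratio 2.0, SE 0.17, adjusted p = 9.48e-06). In clone 4 KCNE4 was at 7.16 CPM, close to WT.

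NT5E codes for CD73, the enzyme that makes adenosine from AMP outside the cell and can also cleave NMN, and it stood at 58.3 and 66.3 CPM in the WT pair and 164 CPM in clone 5 (log2 ratio 1.39, SE 0.10, adjusted p = 2.62e-06). SERPINE2, an inhibitor of thrombin and urokinase, stood at 54.5 and 55.8 CPM in the WT pair and 130.4 CPM in clone 5 (log2 ratio 1.24, SE 0.10, adjusted p = 5.7e-06). TSPAN7, a tetraspanin, stood at 9.77 and 9.86 CPM in the WT pair and 24.3 CPM in clone 5 (log2 ratio 1.31, SE 0.17, adjusted p = 0.000464). These 3 rises of clone 5 were not found in clone 4, where the same genes stood at 40.3, 7.38 and 2 CPM. COL16A1, a collagen of fibril surfaces, rose by 1.53 (SE 0.23) from a low level of 3.65 and 3.90 CPM. The guidance receptors PLXNA2 and UNC5B rose by 1.39 (SE 0.20) and 1.33 (SE 0.22), and the GPI-anchored protein LY6K by 1.24 (SE 0.20). GABRG1, a subunit of the GABA-A receptor, stood at 4.51 and 3.90 CPM in the WT pair and 14.9 CPM in clone 5 (log2 ratio 1.83, SE 0.20, adjusted p = 0.00014).

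S100P, a small calcium-binding protein of many carcinomas, stood at 20.2 and 20.1 CPM in the WT pair and 58.5 CPM in clone 5 (log2 ratio 1.54, SE 0.12, adjusted p = 2.96e-06), and at 54.1 CPM in clone 4. The B-cell and stromal transcription factor EBF1, the zinc finger gene ZNF766 and the long non-coding RNA LINC00261, which lies beside FOXA2, showed rises of 1.23 (SE 0.24), 1.27 (SE 0.12) and 1.26 (SE 0.18). Of the 13 genes described, S100P and PLXNA2 were called higher in clone 4 too. The clones were set against the same WT libraries, so these pairs of values share their error.

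Gene lists of 47 programmes were then described by how many members were called and by the median log2 ratio. That median was -0.00 over all genes tested. Of all genes tested, 1.78% rose, 1.73% fell, 37.2% stood above both WT libraries and 37.9% below both. These shares are the background for the counts of every list. The programmes with the highest medians in clone 5 among lists with at least 10 tested members were targets of NF-kB (0.38), targets of ATF4 (0.34) and the output of RAS-ERK signalling (0.34). ATF4 is the transcription factor of the integrated stress response that turns on amino acid uptake and synthesis. Of 36 ATF4 targets tested, 13 rose and 0 fell, and 33 stood above both WT libraries. The medians were -0.08 for WT 1 over WT 2 and -0.13 for clone 4 over WT, and in clone 4, 2 of the list rose and 8 fell. With no filter on low counts, 0 members of the ATF4, NF-kB or RAS-ERK lists passed the test.

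**Figure D3:**
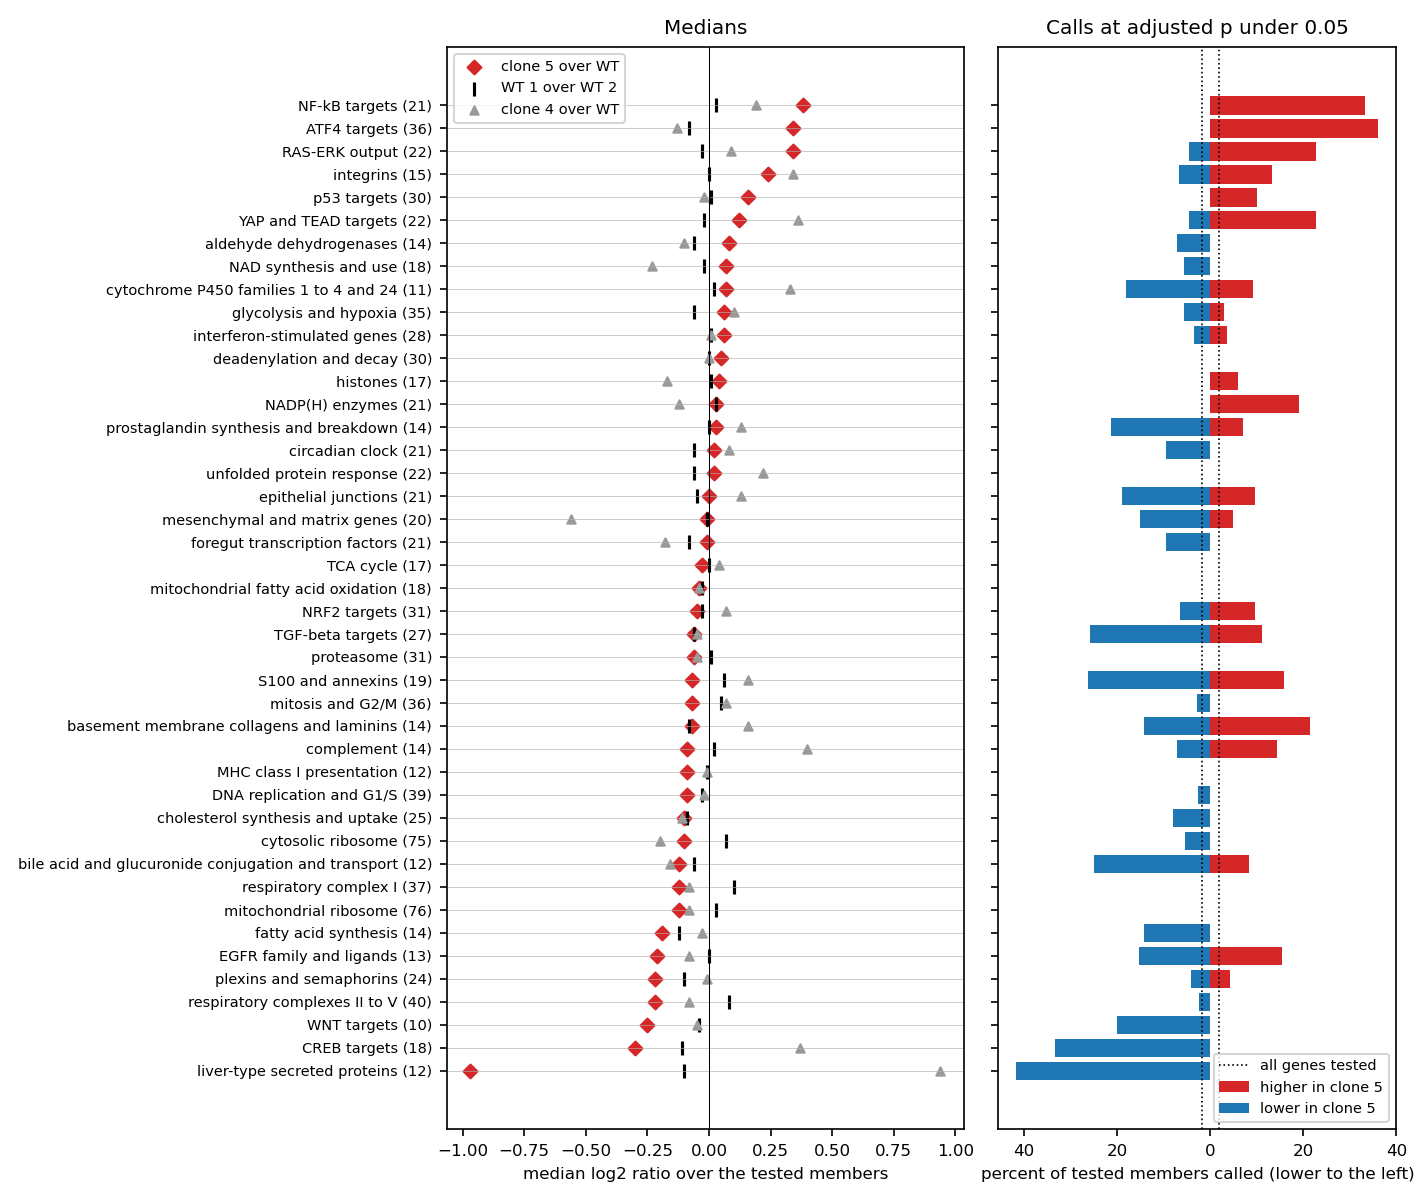
Left, median log2 ratio of each programme with at least 10 tested members (number in brackets), for clone 5 over WT (red diamonds), WT 1 over WT 2 (black bars) and clone 4 over WT (grey triangles). Right, percent of the tested members called higher (red) or lower (blue, to the left) in clone 5, with the share over all genes tested (1.78% and 1.73%) as dotted lines; NF-kB, ATF4 and RAS-ERK lead at the top, and liver-type proteins are last at -0.97.

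Transport of neutral amino acids was one branch of the ATF4 list. SLC38A2, which imports small neutral amino acids, stood at 669 and 724 CPM in the WT pair and 959 CPM in clone 5 (log2 ratio 0.46, SE 0.07, adjusted p = 0.00231). SLC7A5, the light chain of the leucine transporter LAT1, stood at 1219 and 1366 CPM in the WT pair and 1706 CPM in clone 5 (log2 ratio 0.40, SE 0.07, adjusted p = 0.00597). SLC1A4 and SLC1A5, which exchange alanine, serine and glutamine, rose by 0.60 (SE 0.10) and 0.37 (SE 0.09). The cystine carrier SLC7A11 stood at 752 and 737 CPM in the WT pair and 835 CPM in clone 5 and did not pass the test (adjusted p = 0.248).

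Enzymes of amino acid and one-carbon metabolism formed another branch. ASNS, asparagine synthetase, stood at 268 and 269 CPM in the WT pair and 356 CPM in clone 5 (log2 ratio 0.41, SE 0.08, adjusted p = 0.0127). GPT2, the mitochondrial alanine transaminase, stood at 40.2 and 40.5 CPM in the WT pair and 66.3 CPM in clone 5 (log2 ratio 0.72, SE 0.11, adjusted p = 0.00220). PCK2, the mitochondrial enzyme that makes phosphoenolpyruvate, stood at 99.1 and 114 CPM in the WT pair and 142 CPM in clone 5 (log2 ratio 0.42, SE 0.10, adjusted p = 0.0403). In each of these 3 the clone 5 value lay clear of a WT pair, and clone 4 was at 182, 22.4 and 84.8 CPM. Of the serine pathway, PHGDH, PSAT1 and PSPH stood at ratios of 0.39, 0.22 and 0.02 with adjusted p = 0.0706, 0.158 and 0.973.

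Regulators in the list moved unequally. TRIB3, a pseudokinase that restrains AKT, stood at 113 and 129 CPM in the WT pair and 189 CPM in clone 5 (log2 ratio 0.65, SE 0.10, adjusted p = 0.00213). ATF5, a related transcription factor, stood at 99.8 and 112 CPM in the WT pair and 164 CPM in clone 5 (log2 ratio 0.62, SE 0.10, adjusted p = 0.00241). The hormone STC2 and the mTOR inhibitor DDIT4 rose by 0.52 (SE 0.09) and 0.40 (SE 0.10). ATF4 itself stood at 287 and 300.5 CPM in the WT pair and 357 CPM in clone 5 and did not pass the test (log2 ratio 0.28, SE 0.08, adjusted p = 0.0926). DDIT3, which codes for CHOP, was one of the 2 members with a negative ratio, at 12.9 and 10.3 CPM in the WT pair and 9.28 CPM in clone 5 (log2 ratio -0.32, SE 0.20, adjusted p = 0.495). None of 22 genes of the unfolded protein response was called in either direction at an adjusted p under 0.05, with a median of 0.02, and the tRNA synthetase genes of the ATF4 list (AARS, CARS, GARS, MARS, SARS and WARS) stood at ratios from 0.16 to 0.31 without a call.

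**Figure D4:**
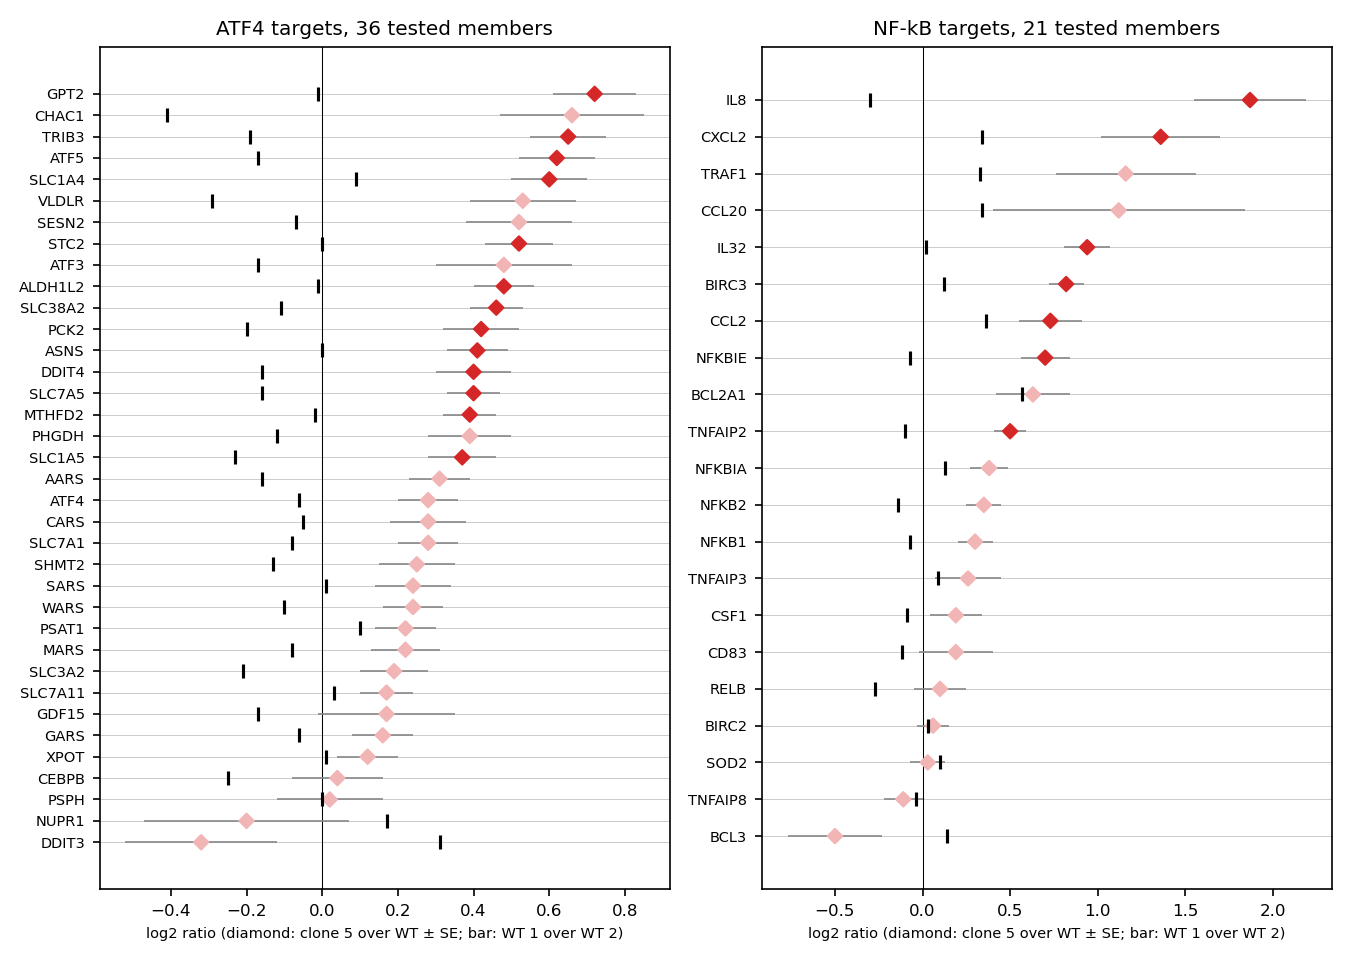
Log2 ratio of clone 5 over WT (diamonds, with bars of 1 SE; dark where the adjusted p was under 0.05) and of WT 1 over WT 2 (black bars) for the 36 tested ATF4 targets (left) and the 21 tested NF-kB targets (right). Nearly all diamonds lie right of 0, up to 0.72 for GPT2 and 1.87 for IL8, with DDIT3 and BCL3 at the bottom.

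NF-kB is the transcription factor of inflammatory signalling, held in the cytoplasm by inhibitors that it induces itself. Of 21 NF-kB targets tested, 7 rose and 0 fell in clone 5, where 1.78% of all genes rose. The medians were 0.03 for WT 1 over WT 2 and 0.19 for clone 4. The chemokine gene IL8 (CXCL8), which attracts neutrophils, stood at 1.23 and 1.64 CPM in the WT pair and 5.24 CPM in clone 5 (log2 ratio 1.87, SE 0.32, adjusted p = 0.00383). The chemokine genes CXCL2 and CCL2 rose by 1.36 (SE 0.34) and 0.73 (SE 0.18), at 4.67 and 21.3 CPM in clone 5. Both lost their calls with DESeq2 (adjusted p = 0.375 and 0.162) and with the filter that asks for 1 library, which left 5 calls in the list. IL8 and CXCL2 were scarce, and their ratios carried the widest errors of the called members. BIRC3, an inhibitor of cell death that ubiquitinates RIPK1, stood at 103 and 94.9 CPM in the WT pair and 175 CPM in clone 5 (log2 ratio 0.82, SE 0.10, adjusted p = 0.000204). IL32, a secreted inflammatory mediator, stood at 24.9 and 24.5 CPM in the WT pair and 47.6 CPM in clone 5 (log2 ratio 0.94, SE 0.13, adjusted p = 0.000676). NFKBIE, an inhibitor of NF-kB, rose by 0.70 (SE 0.14) and TNFAIP2 by 0.50 (SE 0.09), while the inhibitor gene NFKBIA stood at 49.9 and 45.4 CPM in the WT pair and 62.1 CPM in clone 5 without passing the test (log2 ratio 0.38, SE 0.11, adjusted p = 0.0828). In clone 4 BIRC3, IL8 and TNFAIP2 were called higher too, at 156, 3.55 and 159 CPM. None of 12 genes of MHC class I presentation was called, and of 28 interferon-stimulated genes IFITM2 rose by 0.62 (SE 0.14) and OAS1 fell by 0.74 (SE 0.19).

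Promoters of 3 of these risen genes are shown with the letters of the factor that names their list, a choice made after their values were seen. They are again the 250 bases before the start from RefSeq on GRCh38.p14, at chr4:73740319-73740568 (plus strand) for CXCL8, chr4:74099196-74099445 (minus strand) for CXCL2 and chr7:97872409-97872658 (minus strand) for ASNS. Capitals mark GGANTTTCC, letters of the NF-kB site, or its complement in the first pair, and TGATGNAA, letters of the ATF4 site, in ASNS.
CXCL8: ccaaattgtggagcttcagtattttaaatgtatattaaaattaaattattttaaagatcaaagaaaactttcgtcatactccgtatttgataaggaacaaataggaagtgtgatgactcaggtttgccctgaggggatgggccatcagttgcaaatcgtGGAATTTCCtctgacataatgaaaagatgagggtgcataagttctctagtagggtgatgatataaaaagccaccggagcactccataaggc
CXCL2: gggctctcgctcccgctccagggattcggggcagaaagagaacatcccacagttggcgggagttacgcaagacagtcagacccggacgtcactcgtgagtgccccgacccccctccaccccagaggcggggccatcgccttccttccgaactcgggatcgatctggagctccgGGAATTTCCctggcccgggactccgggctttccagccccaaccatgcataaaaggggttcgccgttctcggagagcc
ASNS: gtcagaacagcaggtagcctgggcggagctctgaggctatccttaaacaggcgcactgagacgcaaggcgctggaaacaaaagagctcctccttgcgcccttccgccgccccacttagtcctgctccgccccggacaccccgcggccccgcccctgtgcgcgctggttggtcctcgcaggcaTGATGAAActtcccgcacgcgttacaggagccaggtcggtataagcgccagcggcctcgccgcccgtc
The NF-kB letters began 91 bases before the start of CXCL8 and 77 bases before that of CXCL2, and are present on either strand in 1.45% of promoters. The ATF4 letters began 68 bases before the start of ASNS and are present in 3.14% of promoters. The AP-1 letters TGANTCA, which do not overlap the NF-kB letters there, matched 137 bases before the start of CXCL8 and are present in 6.57% of promoters.

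RAS-ERK signalling carries growth signals to the nucleus, and its list holds genes that ERK induces, many of which feed back on the pathway. Of 22 tested, 5 rose and 1 fell, where 1.78% of all genes rose and 1.73% fell. In clone 4 the median of the list was 0.09, and 5 members rose and 0 fell. DUSP4, DUSP5 and DUSP6 are phosphatases that switch off ERK. DUSP4 stood at 108 and 109 CPM in the WT pair and 163 CPM in clone 5 (log2 ratio 0.58, SE 0.09, adjusted p = 0.00231), and DUSP5 and DUSP6 rose by 0.70 (SE 0.12) and 0.64 (SE 0.13). The AP-1 subunit FOSL1 and PHLDA1 rose by 0.61 (SE 0.12) and 0.45 (SE 0.09). FOS, another AP-1 subunit, went the other way, at 11.1 and 13.2 CPM in the WT pair and 5.96 CPM in clone 5 (log2 ratio -1.03, SE 0.20, adjusted p = 0.00772). The feedback inhibitors SPRY2 and SPRY4 stood at 0.46 and 0.33 with adjusted p = 0.0597 and 0.158, and MYC and CCND1 at -0.17 and 0.08 with adjusted p = 0.441 and 0.676. Upstream, the receptor gene EGFR and its ligand gene EREG rose by 0.48 (SE 0.09) and 0.45 (SE 0.07). ERBB3 and NRG4 fell by 1.07 each (SE 0.21 and 0.25). DUSP4, EGFR and EREG were called higher in clone 4 too, at 151, 170.3 and 907 CPM. FOS was called higher there, at 21.1 CPM, on the opposite side of WT.

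Targets of p53, the factor of the DNA damage response, had a median of 0.16 with 3 of 30 called, all higher. Among all genes 1.78% rose. CDKN1A, the p21 inhibitor of cyclin-dependent kinases, stood at 55 and 68.2 CPM in the WT pair and 112 CPM in clone 5 (log2 ratio 0.87, SE 0.12, adjusted p = 0.000779). PLK2 and BTG2 rose by 0.46 (SE 0.09) and 0.56 (SE 0.13). CDKN1A and PLK2 were called higher in clone 4 too, at 89.0 and 139 CPM, and BTG2 was not called there, at 26.6 CPM. MDM2, the p53 ligase and a sensitive target, stood at 346 and 331 CPM in the WT pair and 337 CPM in clone 5 (log2 ratio -0.01, SE 0.08, adjusted p = 0.980), level with the WT pair. Cell cycle genes had small negative medians. Of 39 genes of DNA replication and G1/S only E2F8 was called, and it fell by 0.58 (SE 0.15). The median of that list was -0.09, and 27 members stood below both WT libraries, where all genes had 37.9%. The call of E2F8 was lost with DESeq2, limma-voom, without clone 4 and with the filter that asks for 1 library, at adjusted p from 0.0552 to 0.143. Of 36 genes of mitosis and G2/M only PTTG1, securin, was called, at 57.9 and 51.8 CPM in the WT pair and 37 CPM in clone 5 (log2 ratio -0.57, SE 0.12, adjusted p = 0.0166), and the median was -0.07, where WT 1 over WT 2 had 0.05.

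Targets of YAP and TEAD, the factors of the Hippo pathway, had 5 of 22 members higher and 1 lower with a median of 0.12. CTGF and CYR61, the secreted matricellular proteins CCN2 and CCN1, stood at 75, 72.5 and 115 CPM and at 198, 196 and 301 CPM in WT 1, WT 2 and clone 5 (adjusted p = 0.00141 and 0.000876). ANKRD1, AXL and AMOTL2 rose by 0.56 (SE 0.10), 0.42 (SE 0.08) and 0.36 (SE 0.09), and IGFBP3, a carrier of insulin-like growth factors, fell by 0.66 (SE 0.09). In clone 4 the median of this list was 0.36 and 11 members rose.

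Targets of CREB, the factor of cAMP signalling, were called in the lower direction only. Of 18 tested, 0 rose and 6 fell, where 1.73% of all genes fell. The median was -0.30, which was -0.47 without WT 1. The phosphodiesterase gene PDE3A, whose product breaks down cAMP, stood at 89.9 and 96.3 CPM in the WT pair and 27.7 CPM in clone 5 (log2 ratio -1.75, SE 0.11, adjusted p = 5.36e-07). PDE4B and the placental peptide gene INSL4 fell by 0.63 (SE 0.15) and 0.74 (SE 0.13). The others were FOS, the BMP and cAMP target ID1, at 89.8 and 78.5 CPM in the WT pair and 53.3 CPM in clone 5 (log2 ratio -0.66, SE 0.11, adjusted p = 0.00352), and CPS1, the first enzyme of the urea cycle, at 718 and 778 CPM in the WT pair and 594 CPM in clone 5 (log2 ratio -0.33, SE 0.08, adjusted p = 0.0308). In clone 4 the median was 0.37, and PDE3A, FOS and ID1 stood above both WT libraries there, at 124, 21.1 and 149 CPM. INSL4 and CPS1 were called lower in clone 4 too, at 25.1 and 292 CPM, and PDE4B was not called there, at 23.1 CPM.

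Several lists split into both directions. Of 27 targets of TGF-beta, 3 rose and 7 fell with a median of -0.06, which was -0.16 without WT 1. THBS1, thrombospondin 1, stood at 113 and 119 CPM in the WT pair and 177 CPM in clone 5 (log2 ratio 0.61, SE 0.09, adjusted p = 0.00190). TGFBI and PMEPA1, both induced by TGF-beta in many cells, fell by 0.72 (SE 0.11) and 0.63 (SE 0.09), and COL1A1 by 0.95 (SE 0.19). TGFBI, PMEPA1 and COL1A1 were called on the same side in clone 4, at 41.8, 171 and 5.71 CPM, and THBS1 on the other, at 81.9 CPM.

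Contacts between cells and with the matrix also split. Of 21 genes of epithelial junctions, 2 rose and 4 fell. CLDN1, a claudin of tight junctions, stood at 447 and 449.9 CPM in the WT pair and 659 CPM in clone 5 (log2 ratio 0.56, SE 0.07, adjusted p = 0.000558), and F11R, the junctional adhesion molecule A, rose by 0.40 (SE 0.10). The desmosome genes DSP, DSC2 and PKP2 all fell, DSP from 235 and 219 CPM to 154 CPM (adjusted p = 0.00348), and the tight junction gene CGN, cingulin, fell by 1.07 (SE 0.18). In clone 4 DSP, CGN and PKP2 were called higher, on the opposite side of WT, and DSC2 was not called (log2 ratio 0.10, adjusted p = 0.692).

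Calls among 14 basement membrane genes included rises of HSPG2 and LAMC1 and falls of COL4A1 and COL4A5. HSPG2, perlecan, stood at 28.5 and 28.1 CPM in the WT pair and 54.2 CPM in clone 5 (log2 ratio 0.94, SE 0.12, adjusted p = 0.000497), and COL4A1, a chain of collagen IV, at 166 and 177 CPM in the WT pair and 126 CPM in clone 5 (log2 ratio -0.45, SE 0.10, adjusted p = 0.0184). Of 15 integrins, ITGA2 and ITGA3, subunits of receptors for collagen and laminin, rose by 0.84 (SE 0.10) and 0.38 (SE 0.10), and their partner ITGB1 fell by 0.37 (SE 0.07). The mesenchymal repressor gene ZEB2 rose, at 13.6 and 10.4 CPM in the WT pair and 27 CPM in clone 5 (log2 ratio 1.17, SE 0.18, adjusted p = 0.00202), and the matrix genes LUM and CDH11 fell with COL1A1, so that of 20 mesenchymal and matrix genes 1 rose and 3 fell.

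S100 proteins and annexins, both families of calcium-binding proteins, had 3 members higher and 5 lower of 19. S100P, S100A16 and S100A4 rose, and S100A10, ANXA1, ANXA3, ANXA4 and ANXA10 fell. Among the falls ANXA3 went furthest, at 17.4 and 16.6 CPM in the WT pair and 7.50 CPM in clone 5 (log2 ratio -1.18, SE 0.16, adjusted p = 0.000869), and ANXA1 was the most abundant, an inhibitor of phospholipase A2, at 626 and 583 CPM in the WT pair and 419.9 CPM in clone 5 (log2 ratio -0.53, SE 0.08, adjusted p = 0.00164). Prostaglandin genes included PTGS2, cyclooxygenase 2, at 37.1 and 33.6 CPM in the WT pair and 21.3 CPM in clone 5 (log2 ratio -0.73, SE 0.12, adjusted p = 0.00377), and HPGD, which breaks prostaglandins down, at 48.5 and 47.2 CPM in the WT pair and 75.1 CPM in clone 5 (log2 ratio 0.65, SE 0.10, adjusted p = 0.00241).

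Because NOCT acts on NADP(H), enzymes that use or make it were listed. Of 21 tested, 4 rose and 0 fell, with a median of 0.03, where 1.78% of all genes rose. NNT, the mitochondrial transhydrogenase that makes NADPH from NADH, stood at 30.6 and 27.6 CPM in the WT pair and 46.5 CPM in clone 5 (log2 ratio 0.68, SE 0.13, adjusted p = 0.00786). NQO1, the quinone reductase, stood at 1469.9 and 1616 CPM in the WT pair and 2128 CPM in clone 5 (log2 ratio 0.46, SE 0.07, adjusted p = 0.00138). ALDH1L2, a mitochondrial folate enzyme that yields NADPH, stood at 351 and 355 CPM in the WT pair and 493 CPM in clone 5 (log2 ratio 0.48, SE 0.08, adjusted p = 0.00298). MTHFD2, its partner in the mitochondrial folate cycle, stood at 679 and 687 CPM in the WT pair and 894 CPM in clone 5 (log2 ratio 0.39, SE 0.07, adjusted p = 0.00509), and both are ATF4 targets too. In clone 4 the same 4 genes stood at 19.8, 1138, 233 and 627 CPM, below both WT libraries in each case. Of 18 genes of NAD synthesis and use only TDO2, which starts the breakdown of tryptophan, was called, and it fell by 0.59 (SE 0.12).

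Targets of NRF2, the oxidant-responsive factor that is constitutively active in A549, had 3 members higher and 2 lower of 31, with a median of -0.05. NQO1, FTL, the ferritin light chain, and ABCC3 rose, FTL from 7928 and 8552 CPM to 10602 CPM (adjusted p = 0.00108). AKR1C2 and AKR1C3, which reduce steroids and prostaglandins, fell, AKR1C2 from 825 and 794 CPM to 437 CPM (adjusted p = 5.7e-06). In clone 4 both were called higher, at 1183 and 583 CPM, on the opposite side of WT. Of the whole NRF2 list 9 members rose and 2 fell in clone 4. The AKR1C genes are close copies of each other, so reads may have been split between them. ALDH1A1, retinaldehyde dehydrogenase, stood at 2650.5 and 2597 CPM in the WT pair and 1836 CPM in clone 5 (log2 ratio -0.52, SE 0.06, adjusted p = 0.000178), the only call among 14 aldehyde dehydrogenases. Of cytochrome P450 genes, CYP24A1, which degrades vitamin D, fell by 0.53 (SE 0.07) and CYP4F3 by 0.96 (SE 0.18), while CYP1B1 rose by 0.36 (SE 0.06). In clone 4 CYP24A1 and CYP1B1 were called higher, at 1214 and 1664 CPM. ALDH1A1 and CYP4F3 were not called there, at 2731 and 18.8 CPM.

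The few calls among genes of lipid synthesis were all in the lower direction, where 1.73% of all genes fell. Of 14 genes of fatty acid synthesis 0 rose and 2 fell with a median of -0.19, where WT 1 over WT 2 had -0.12. SCD, the desaturase that makes oleate, stood at 1307 and 1437 CPM in the WT pair and 859.8 CPM in clone 5 (log2 ratio -0.67, SE 0.07, adjusted p = 0.000116), and FADS2, the first desaturase of polyunsaturated fatty acids, at 147 and 168 CPM in the WT pair and 109 CPM in clone 5 (log2 ratio -0.53, SE 0.11, adjusted p = 0.0113). In clone 4 SCD and FADS2 were called lower too, at 1012 and 122 CPM. Calls among 25 genes of cholesterol synthesis and uptake included STARD4, a carrier of cholesterol, at 70.6 and 68.5 CPM in the WT pair and 43.4 CPM in clone 5 (log2 ratio -0.68, SE 0.11, adjusted p = 0.00223). STARD4 was called higher in clone 4, at 92.2 CPM, on the opposite side of WT.

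Transcripts of glucose transporters were called in both directions. SLC2A3, which codes for GLUT3, stood at 144 and 165 CPM in the WT pair and 48 CPM in clone 5 (log2 ratio -1.69, SE 0.11, adjusted p = 8.5e-07). SLC2A1, which codes for GLUT1, stood at 172 and 183 CPM in the WT pair and 254 CPM in clone 5 (log2 ratio 0.52, SE 0.09, adjusted p = 0.00469). PFKFB3, which makes the activator of phosphofructokinase, fell by 0.38 (SE 0.09), and these were the 3 calls among 35 genes of glycolysis and hypoxia, whose median was 0.06, and 0.02 without WT 1. In clone 4 the transporters lay on the opposite sides, at 229 CPM for SLC2A3 and 149 CPM for SLC2A1, the latter without a call.

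Genes of mitochondria and ribosomes stood slightly lower in clone 5 with few calls. The medians were -0.12 for 37 subunits of respiratory complex I, -0.22 for 40 subunits of complexes II to V and -0.12 for 76 proteins of the mitochondrial ribosome. Over the same lists WT 1 stood above WT 2 by medians of 0.10, 0.08 and 0.03, and clone 4 over WT gave -0.08 in each. Without WT 1 the medians of clone 5 were nearer 0, at -0.08, -0.13 and -0.08. Of all these genes 1 was called, the cytochrome oxidase subunit COX7B, at 71.8 and 48 CPM in the WT pair and 34.7 CPM in clone 5 (log2 ratio -0.79, SE 0.18, adjusted p = 0.0257), and its WT pair differed by 0.58 on the log2 scale. This call was lost with DESeq2 (adjusted p = 0.773) and with the filter that asks for 1 library (adjusted p = 0.117). NDUFB1 of complex I and MRPL20 of the mitochondrial ribosome stood at -0.68 (SE 0.18) and -0.48 (SE 0.13), both with an adjusted p = 0.0530. The numbers below both WT libraries were 23 of 37, 29 of 40 and 52 of 76, where all genes had 37.9%.

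Cytosolic ribosomal proteins gave a median of -0.10 over 75 genes, with 0.07 for WT 1 over WT 2, and 4 fell. Without WT 1 the median was -0.04, and in clone 4 it was -0.20 with 10 members called lower. RPS13 stood at 131 and 95.5 CPM in the WT pair and 65.8 CPM in clone 5 (log2 ratio -0.78, SE 0.15, adjusted p = 0.00759), and RPS7 at 34.5 and 32.8 CPM in the WT pair and 20.4 CPM in clone 5 (log2 ratio -0.72, SE 0.14, adjusted p = 0.00772). With DESeq2 RPS13 lost its call (adjusted p = 0.523). RPLP1 and RPL10 fell by 0.41 (SE 0.09) and 0.49 (SE 0.11). Ribosomal protein genes have many processed pseudogenes, which may share their reads. Many of these transcripts are short, and over all genes the fifth with the shortest transcripts had a median of -0.04 against 0.01 for the fifth with the longest. The part of transcript length in the medians of these lists was not tested. No gene was called among 17 of the TCA cycle, 18 of mitochondrial fatty acid oxidation, 31 of the proteasome or 30 of deadenylation and mRNA decay, and the medians were -0.03, -0.04, -0.06 and 0.05. Without WT 2 those of the proteasome and of mRNA decay were -0.10 and 0.01.

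The next 5 lists were short, and 3.51% of all genes tested were called in either direction. Calls among 14 complement genes included CD59, which protects cells from the membrane attack complex and rose by 0.43 (SE 0.08). C3, the central component, fell from 12.5 and 11.4 CPM to 7.65 CPM (adjusted p = 0.0470, and 0.105 with clone 4 left out of the fit), against 54.3 CPM in clone 4. Of 10 WNT targets, 0 rose and 2 fell, namely RNF43, a ligase that removes WNT receptors, by 0.68 (SE 0.15), and the growth factor gene BMP4 by 0.78 (SE 0.18). Of 24 plexins and semaphorins, PLXNA2 rose and PLXNC1 fell by 1.33 (SE 0.25). Of 17 histone genes, HIST1H2BK (H2BC12) rose by 0.58 (SE 0.12). Of 8 keratins, KRT81 rose and KRT18 fell, KRT18 by 0.28 (SE 0.07).

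The circadian clock was listed because NOCT is a clock output. Of 21 tested, the repressor BHLHE41 (DEC2) and the output factor HLF fell and 0 rose. BHLHE41 stood at 5.98 and 6.21 CPM in the WT pair and 2.07 CPM in clone 5 (log2 ratio -1.56, SE 0.21, adjusted p = 0.000703), and HLF at 4.17 and 4.91 CPM in the WT pair and 1.97 CPM in clone 5 (log2 ratio -1.20, SE 0.28, adjusted p = 0.0308). HLF lost its call with DESeq2, limma-voom, without clone 4 and with the filter that asks for 1 library, at adjusted p from 0.0539 to 0.160. Both were higher in clone 4, at 49 and 8.16 CPM. The median of the list was 0.02.

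Genes were finally ordered along the chromosomes, in windows of 20 Mb with at least 20 genes of at least 5 CPM. All 5 windows of chromosome 16 stood above WT, with medians from 0.11 to 0.18, while the medians of the 143 other windows lay between -0.11 and 0.11. Over the 448 genes of at least 5 CPM on chromosome 16 the median was 0.15, 70.3% stood above both WT libraries, 13 rose and 0 fell. For WT 1 over WT 2 the median of the chromosome was -0.06, and clone 4 over WT had -0.41, so the clones departed from WT in opposite directions. No copy number was measured. Of the genes named above, GPT2, SLC7A5, NQO1, IL32, CDH1, AARS and CDH11 lie on chromosome 16, and MT2A and ABCA3 do too. MT2A, a metallothionein, rose by 0.74 (SE 0.14) and ABCA3, a lipid pump of surfactant-making cells, by 0.76 (SE 0.11). Without members on chromosome 16 the median was 0.33 for the ATF4 list and 0.37 for the NF-kB list, against 0.34 and 0.38 with them. Calls were not recounted without these members, and the part of chromosome 16 in the lists was not tested.

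**Figure D5:**
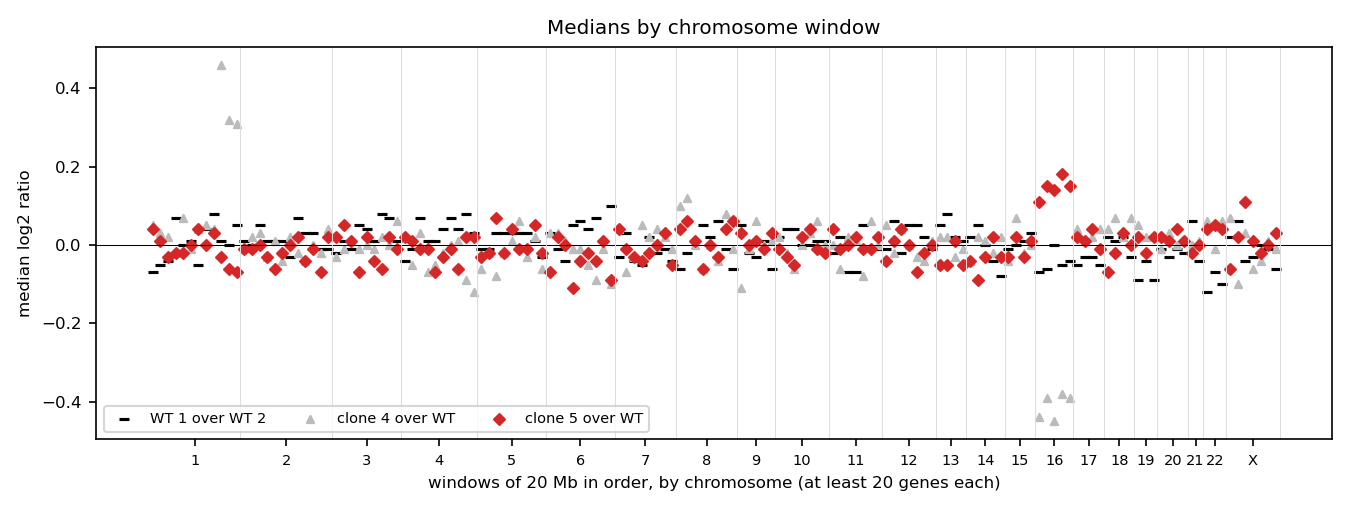
Median log2 ratio in 148 windows of 20 Mb, in order along chromosomes 1 to 22 and X (x axis), for clone 5 over WT (red diamonds), WT 1 over WT 2 (black dashes) and clone 4 over WT (grey triangles). The 5 windows of chromosome 16 stand at 0.11 to 0.18 in clone 5 and at -0.45 to -0.38 in clone 4.

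Set side by side, the clones shared some changes and differed in others. S100P, BIRC3, EGFR and HPGD were called higher, and FSTL1, UGT1A1, BAAT, TGFBI, PMEPA1, ANXA10, INSL4 and SCD lower, in both clones against the same WT pair. FGA, FGB, FGG, CP, NRCAM, DIO2, NTS, NR5A2 and BHLHE41 were called lower in clone 5 and higher in clone 4, and SERPINE2, COL16A1, TSPAN7, ZEB2 and KRT81 higher in clone 5 and lower in clone 4. KRT81, a hair keratin, showed the widest gap among the latter, at 107 and 105 CPM in the WT pair and 165 CPM in clone 5, and 1.89 CPM in clone 4. Tested directly, 970 genes were higher and 753 lower in clone 5 than in clone 4, which is 7.38% and 5.73% of all genes.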

How the data were processed

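Poly-A+ RNA of 4 A549 libraries was sequenced by the authors, who deposited raw gene counts without normalization. Reads were mapped to hg19, and TopHat2 and HTSeq appear in the submitters' processing notes. Versions, annotation and strandedness were not given in the sources used here. Genes that overlap, or lie antisense to each other, may share reads. Between 99.1% and 99.2% of the nonzero counts in a library were even, so each fragment may have been counted as a pair. Of 23368 lines, 28 named by a date (0.274% of counts) were dropped, and 0 sample columns were left aside. Positions came from GENCODE on hg19, by symbol as given (19556) or by an older symbol (1908), and 1876 lines were not matched.

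Genes were kept by filterByExpr of edgeR 4.0.16 in R 4.3.3 (minimum count 10, minimum total 15, 2 libraries), scaled by TMM and fitted with quasi-likelihood in 3 groups (WT, clone 4, clone 5) with 1 residual degree of freedom, which assumes that a lone clone library varies like the WT pair. The coefficient of biological variation was 8.33%. Halved counts of WT 1 and WT 2 differed with a mean chi-square of 13.4 over genes, above sampling noise. Abundant genes that differed within the pair, such as GAPDH, weigh heavily in this mean, so it need not describe a typical gene. Log2 ratios between single libraries used CPM + 0.5. Alternatives were DESeq2 1.42.0, limma 3.58.1 (voom), other scalings and filters, halved counts and libraries left out; the filter that asks for 1 library and the medians without chromosome 16 were chosen after seeing the data. The pipeline was tested on simulated data. Summaries and plots used Python 3.11.15 (pandas 2.3.3, numpy 2.4.6; matplotlib 3.10.9 for plots).

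The comparison, the 47 gene lists and the rule for named genes were chosen with earlier results of these data known. The rule was NOCT, the 15 called genes with the largest change in each direction at a mean of at least 5 CPM, and of each list up to 5 called members with the smallest p, or up to 2 where none was called. Not all of these are printed, some genes being not reported here, and other list members were named after their values were seen. No paired test across libraries was made, and list medians carry no test.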

Additional observations from a re-analysis of the deposited data

Results flagged for a closer look

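Genes below were called between clone 5 and WT and also differed between clone 5 and clone 4 at an adjusted p under 0.05 in edgeR, that is, the 2 clones departed unequally from the same WT pair. Each clone is 1 library, and the test takes its spread from the WT pair, pooled over genes. Values are log2 ratios of clone 5 over clone 4. For fibrinogen the ratios were -8.23 for FGA and, as fitted values that depend on the prior count and are no bounds because clone 5 had 0 counts, -14.67 for FGB and -12.02 for FGG.

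Among plasma, bile acid and gut genes they were -4.94 for CP, -1.95 for ITIH2, -2.84 for SLCO1B3, 0.59 for ABCC3, 1.54 for BAAT, -5.12 for NR5A2 and -1.61 for KLF5. For other genes among the furthest changes the ratios were -10.11 for NRCAM, -2.73 for CPLX2, -1.77 for MAP2, -2.22 for NTRK3, -4.34 for NTS, -7.42 for DIO2, 1.47 for GABRG1 and 2.16 for UNC5B. In the group of other genes with a rise in clone 5, clone 5 over clone 4 gave 1.84 for KCNE4, 0.46 for LAMC1, 1.38 for HSPG2, 3.91 for COL16A1, 2.02 for NT5E, 4.14 for SERPINE2, 3.60 for TSPAN7, 3.31 for LY6K, 1.11 for THBS1 and 0.45 for ITGA2. Among collagen, junction and integrin genes they were -0.40 for COL4A1, -1.15 for COL4A5, 0.90 for LUM, 0.35 for CLDN1, -0.44 for F11R, -2.17 for CGN, -1.04 for DSP, -0.85 for DSC2, -1.31 for PKP2 and -0.61 for ITGB1. For keratins and transcription factors the ratios were -0.75 for KRT18, 6.45 for KRT81, 5.33 for ZEB2, 3.01 for EBF1, 1.23 for ZNF766, -4.56 for BHLHE41, -2.05 for HLF, -0.98 for E2F8 and -1.48 for ID1. In the group of ATF4 targets, clone 5 over clone 4 gave 0.97 for ASNS, 0.87 for ATF5, 0.50 for TRIB3, 1.56 for GPT2, 0.75 for PCK2, 0.42 for DDIT4, 0.60 for STC2, 0.70 for SLC1A4, 0.62 for SLC38A2, 0.64 for SLC7A5, 1.08 for ALDH1L2 and 0.51 for MTHFD2.

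Among NADP(H), NRF2 and steroid genes they were 1.24 for NNT, 0.90 for NQO1, 0.23 for FTL, -1.44 for AKR1C2, -0.80 for AKR1C3, -0.57 for ALDH1A1, -0.90 for CYP24A1, -1.29 for CYP4F3 and 2.18 for MT2A. For NF-kB targets, complement and interferon genes the ratios were 1.26 for IL32, 2.14 for CXCL2, 0.87 for CCL2, -2.83 for C3, 0.87 for IFITM2 and -1.68 for OAS1. In the group of genes of ERK, p53, YAP, CREB and ERBB signalling, clone 5 over clone 4 gave -1.83 for FOS, 0.76 for FOSL1, 0.58 for PHLDA1, -0.36 for PLK2, 0.49 for CYR61, -1.56 for IGFBP3, -2.17 for PDE3A, 1.02 for CPS1, -0.88 for ERBB3 and -1.17 for NRG4. Among calcium-binding proteins and prostaglandin synthesis they were -0.44 for ANXA1, -2.48 for ANXA3, 0.54 for S100A4, -0.70 for S100A10, 0.84 for S100A16 and -2.26 for PTGS2. For sugar and lipid handling the ratios were 0.77 for SLC2A1, -2.26 for SLC2A3, -1.09 for STARD4 and 1.11 for ABCA3. In the group of the remaining genes, clone 5 over clone 4 gave -2.20 for DACT2, -2.06 for SAMD11, 2.45 for LINC00261, -2.16 for LINC00410, -0.62 for RNF43, -2.26 for BMP4, -1.91 for PLXNC1 and 1.93 for HIST1H2BK. KRT81, ZEB2 and SERPINE2 stood furthest above clone 4 among these genes and, after the fibrinogen genes, NRCAM, DIO2 and NR5A2 furthest below it.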

How the results depend on the processing

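With DESeq2, 148 genes were higher and 150 lower in clone 5 than in WT, with a filter that asks for 1 library 135 and 135, and with no filter on low counts 8 and 21; against clone 4 the counts were 638 and 501 with DESeq2 and 258 and 238 with no filter. With no filter, 0 members of the ATF4, NF-kB and RAS-ERK lists were called and 3 of the liver-type list, which also kept 3 calls with DESeq2 and at a mean of at least 5 CPM, where FGG and ITIH2 are not tested. The cause of the drop with no filter was not tested. At a mean of at least 1 CPM 41 genes were at least 2-fold higher and 85 lower than WT, and at a mean of at least 20 CPM 7 and 13. Without 1 WT library the 2-fold counts lay between 20 and 23 higher and between 39 and 42 lower. Without clone 4, edgeR called 214 genes higher and 197 lower in clone 5 than in WT.

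Of 145 called genes named in the text, 0 changed direction under any alternative. Calls were lost for 122 with no filter, 34 with the filter that asks for 1 library, 26 with DESeq2, 14 without clone 4, 11 with limma-voom, 6 with total counts as library size and 1 with DESeq2 size factors. Those lost with DESeq2 were AMOTL2, BMP4, BTG2, C3, CCL2, CD68, COL4A5, COX7B, CXCL2, DDIT4, E2F8, EBF1, F11R, FGG, HLF, IFITM2, ITGA3, ITIH2, KRT18, NRG4, OAS1, PCK2, PDE4B, RPS13, S100A4 and SLC1A5. The 14 lost without clone 4 were AMOTL2, BMP4, C3, COL4A5, DDIT4, E2F8, F11R, FGG, HLF, ITGA3, KRT18, OAS1, PCK2 and S100A10, with adjusted p from 0.0516 (DDIT4) to 0.105 (C3). No paired analysis was possible because nothing in the labels links a WT library to a clone library. The clone 5 values rest on 1 library, so no error between cultures of the clone is known, and at 3 counts the floor of that library was 0.0721 CPM.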
